A study of Mus musculus with 3 samples.

Results

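Fc receptors bind the constant part of antibodies and connect antibody to the cells that carry the receptor. The 10 genes described here are the Fc receptors Fcgr1, Fcgr2b, Fcgr3, Fcgr4 and Fcgrt, the shared signaling chain Fcer1g, and the Fc receptor-like genes Fcrla, Fcrlb, Fcrl1 and Fcrl5. They were taken by gene name, with every probe for them on the array, but with earlier results of these data known. The study had already named Fcrla as up-regulated on these same arrays by its own criteria, so the Fcrla values below are not independent of that report. The 10 genes had 11 of the 55681 probes and 10 of the 34797 gene names. Of the 11 probes, 10 were well above background on at least 1 array.

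The samples were spleens that carried islet grafts, on 3 arrays with 1 array for each condition. Male C57BL/6 recipients (C57BL/6J in the labels) had been made diabetic with streptozotocin, and received 25 syngeneic islets in the spleen and 100 islets beneath the kidney capsule (SP25+KC100). Spleen was taken directly after transplantation (Sample 1, day 0), on day 2 (Sample 2), or on day 139 (Sample 3), in the last case after nephrectomy on day 100 had removed the kidney graft. All 3 conditions therefore share the induction of diabetes and the placing of both grafts. The day 139 spleen also differs by the nephrectomy, after which the kidney graft was absent, and by the greater time since streptozotocin. Age at harvest may differ along with that time and cannot be told apart from it. The study reports that recipients of this combination of grafts became normoglycemic after transplantation, so blood glucose may also differ between the conditions. Blood glucose was not compared here. Neither the number nor the ages of the mice behind each array are stated in the labels, and the study's methods give only a common range of ages. The characteristics in the labels name the kidney graft for the day 139 sample alone, while the protocol and the study's methods give it for all 3. A spleen without islets was not analysed here.

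No condition had a replicate, so no test of a difference was possible and none is given. Each ratio is set beside the scanner software's own error for the spots, which covers neither labeling nor differences between mice, and beside the ratios of all 32108 probes well above background on at least 1 array. Signals are normalized intensities without a unit, and a probe's signal is compared only with its own signal on another array. Sums over the markers of a cell type are compared in the same way, and the brightest probes weigh most in them. The number of arrays limits the precision. In whole spleen, fewer cells of a type and less RNA per cell cannot be told apart.

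Antibody binding has opposite outcomes depending on the receptor. Fcgr1, Fcgr3 and Fcgr4 are activating receptors for IgG on macrophages, monocytes and neutrophils, and they signal through the Fcer1g chain, which carries an activation motif and recruits the kinase Syk. Fcgr2b is the inhibitory receptor for IgG, the only classical IgG receptor of B cells and also present on myeloid cells, and it acts through the phosphatase encoded by Inpp5d. Fc receptor-like proteins resemble these receptors: Fcrl1 and Fcrl5 lie on the surface of B cells, while Fcrla and Fcrlb stay inside the cell. Fcgrt encodes the neonatal Fc receptor, which pairs with beta-2 microglobulin and returns IgG from endosomes to the blood.

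The probe sequences are given for the members on which the comparisons turn, because they show which part of each transcript was read. Each is written 5′ to 3′ in the sense of the transcript, and capitals in the Fcrla probe mark AATAAA, the letters of the polyadenylation signal. Whether this copy is used, and how near the probe lies to the end of the message, was not tested.
Fcrla, first 30 of 60 bases: ctgttcgagtgtaAATAAAtgcatacaggg
Fcgr2b, first 30 of 60 bases: acttctgtgagtcctgaaaccaacagacac
Fcgr3, all 60 bases: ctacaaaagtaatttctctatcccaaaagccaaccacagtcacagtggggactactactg
The Fcgr3 probe lies in the coding part of its transcript, in the antibody-binding region, which is known to be nearly identical in Fcgr2b. How far this probe also reads Fcgr2b transcripts was not tested.

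Among the B-cell members, Fcrla and Fcrl1 had their highest signal on day 139 and Fcgr2b did not. Fcrla, an intracellular protein of B cells, had normalized signals of 1085 on day 0, 1070 on day 2 and 2943 on day 139. The first 2 of these lie within the error of one another and the day 139 signal stands apart. The log2 ratio of day 2 over day 0 was −0.02 ± 0.20 (scanner error), that of day 139 over day 0 was 1.44 ± 0.20, and that of day 139 over day 2 was 1.46 ± 0.20. The day 139 signal was therefore 2.71-fold that of day 0 and 2.75-fold that of day 2. The Z-score, which sets a log2 ratio against the SD among 1000 probes of like signal, was 2.29 for the first of these and 2.60 for the second. The probe lies on chromosome 1 from 172848103 to 172848162, on the minus strand (mm9).

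Fcrl1, a surface protein that strengthens signals of the B-cell receptor, had signals of 450 on day 0, 312 on day 2 and 706 on day 139 (chromosome 3, 87195973 to 87196032, plus strand, mm9). Day 2 was the lowest and day 139 the highest. The log2 ratio was −0.53 ± 0.20 for day 2 over day 0, 0.65 ± 0.20 for day 139 over day 0 and 1.18 ± 0.20 for day 139 over day 2. As folds, day 139 was 1.57 times day 0 and 2.26 times day 2, with Z-scores of 1.09 and 1.90, which are smaller than those of Fcrla.

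Fcgr2b had signals of 893, 805 and 767 on days 0, 2 and 139 (chromosome 1, 172890988 to 172891047, minus strand, mm9). Its signals declined in this order but by little: the log2 ratio was −0.15 ± 0.20 for day 2 and −0.22 ± 0.20 for day 139, each over day 0. This probe is the only one among the members that was spotted 10 times on each array, so its spread within an array could be measured. Before normalization the spots ran from 883 to 964 on day 0, with a median of 930, from 680 to 899 on day 2, with a median of 857, and from 671 to 729 on day 139, with a median of 698 over the 9 spots not marked as outliers. The day 0 and day 139 spots did not overlap, and 1 low spot on day 2 reached into the range of day 139. These signals are not scaled between arrays. The day 139 array was dimmer as a whole, with a 75th percentile of 247 against 285 on day 0, so the gap is not a measure of change in Fcgr2b. Their coefficient of variation was 3.02% on day 0, 7.44% on day 2 and 2.44% on day 139, below the error of up to 10.1% that the software assigned to the probes of 9 members. Spots on 1 array share the same RNA, so this spread is technical only.

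**Figure D1:**
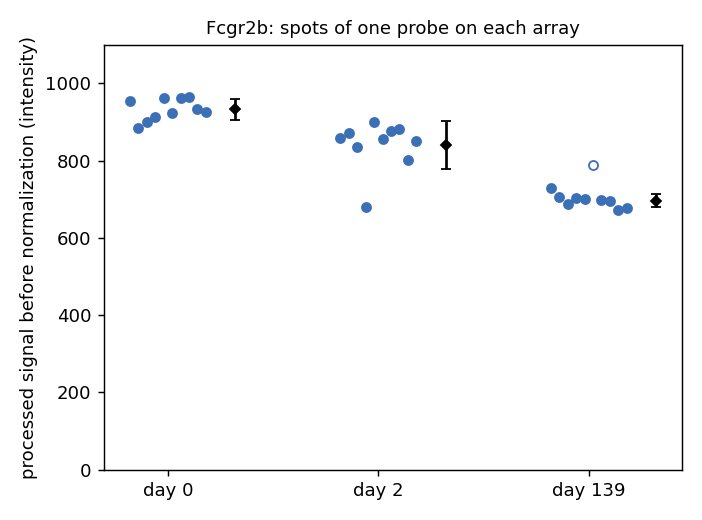
Processed signal of each Fcgr2b spot before normalization (intensity, y axis) on the day 0, day 2 and day 139 arrays. Circles are the 10 spots of the probe, the open circle is the spot marked as an outlier on day 139, and diamonds with bars are the mean ± SD of the others (932 ± 28.1, 841 ± 62.6 and 697 ± 17.0). The day 0 spots lie above all day 139 spots that were used, on signals not scaled between arrays.

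Set against Fcgr2b within the same arrays, the log2 ratio of day 139 over day 0 was greater by 1.66 ± 0.29 for Fcrla and by 0.87 ± 0.29 for Fcrl1. For day 139 over day 2 the differences were 1.53 and 1.25 with the same error, and for day 2 over day 0 they were 0.13 and −0.38. A difference between 2 genes within a pair of arrays is free of any single scale factor per array. The B-cell members thus did not move as a group.

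The remaining Fc receptor-like genes had opposite patterns. Fcrl5, found on marginal zone and B-1 B cells, had signals of 3243, 4202 and 5303 on days 0, 2 and 139 (chromosome 3, 87271386 to 87271445, plus strand, mm9). The signals climbed in the order of time, by a log2 ratio of 0.37 ± 0.20 on day 2 and 0.71 ± 0.20 on day 139, each over day 0, the latter a ratio of 1.64 with a Z-score of 1.18. A second Fcrl5 probe, 33.2 kb away on the same strand and placed in another transcript, was not well above background on any array and gives no ratio.

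Fcrlb, the close relative of Fcrla, had signals of 60.8 on day 0, 15.6 on day 2 and 12.0 on day 139, the last not well above background (chromosome 1, 172837421 to 172837480, minus strand, mm9). Its day 0 signal stands well apart from both later ones. It was 3.90-fold lower on day 2 than on day 0 (log2 ratio −1.97 ± 0.35, Z-score −2.87), and at least 3.34-fold higher on day 0 than on day 139. Days 2 and 139 give no fold. These signals lie near the floor of the array, where the lowest signals well above background were 12.9, 14.0 and 18.2 on days 0, 2 and 139. With a normexp background correction the log2 ratios over day 0 shrank to −0.72 for day 2 and −0.78 for day 139, still lower.

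**Figure D2:**
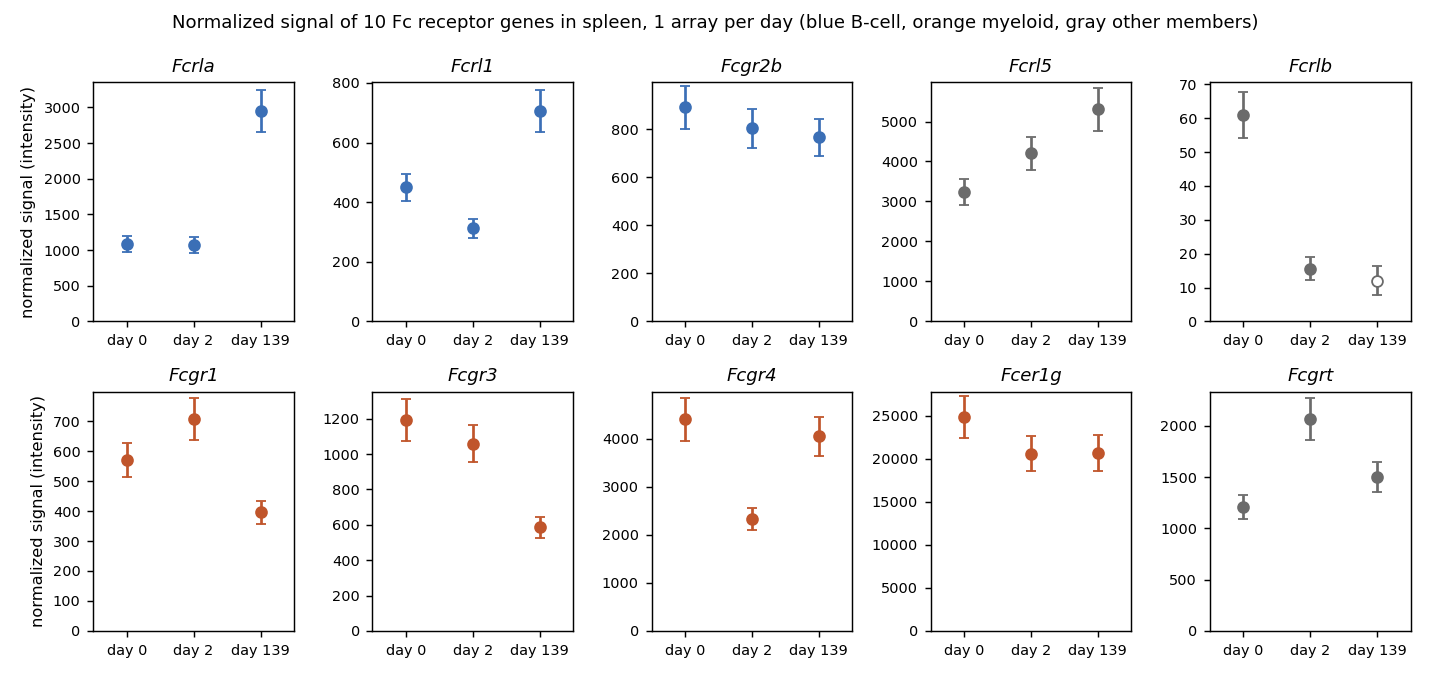
Normalized signal (intensity, y axis, from 0 and scaled for each gene) of the 10 genes on the day 0, day 2 and day 139 arrays. Points are the brightest probe of each gene, bars are the scanner software's error (1 SD), the open point is a signal not well above background, and colors mark B-cell (blue), myeloid (orange) and other (gray) members. Fcrla (2943), Fcrl1 (706) and Fcrl5 (5303) are highest on day 139, while Fcgr3 (585) and Fcgr1 (395) are lowest there.

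The 3 activating IgG receptors each had a different time course. Fcgr1, the high-affinity receptor, had signals of 572, 707 and 395 on days 0, 2 and 139 (chromosome 3, 96086839 to 96086898, minus strand, mm9). It was highest on day 2 and lowest on day 139. The log2 ratio was 0.31 ± 0.20 for day 2 over day 0, −0.53 ± 0.20 for day 139 over day 0 (ratio 0.692) and −0.84 ± 0.20 for day 139 over day 2 (ratio 0.56). The Z-scores, in the same order, were 0.64, −0.77 and −1.38.

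Fcgr3, the low-affinity activating receptor, had signals of 1194, 1059 and 585 on days 0, 2 and 139 (chromosome 1, 172984129 to 172984188, minus strand, mm9). Days 0 and 2 lie within the error of one another, and day 139 was lower than both. Its log2 ratio was −1.03 ± 0.20 for day 139 over day 0, a ratio of 0.49 with a Z-score of −1.90. For day 139 over day 2 the log2 ratio was −0.86 ± 0.20, with a Z-score of −1.37.

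Fcgr4, the receptor for IgG2 antibodies on neutrophils, monocytes and macrophages, had signals of 4402, 2331 and 4050 on days 0, 2 and 139 (chromosome 1, 172959738 to 172959797, plus strand, mm9). Day 2 alone was low. The log2 ratio of day 2 over day 0 was −0.92 ± 0.20 (ratio 0.53, Z-score −2.27). That of day 139 over day 2 was 0.80 ± 0.20 (ratio 1.74, Z-score 1.23). Day 139 over day 0 was −0.12 ± 0.20.

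Fcer1g, the chain these 3 receptors share, had signals of 24865 on day 0, 20606 on day 2 and 20703 on day 139 (chromosome 1, 173159794 to 173159853, minus strand, mm9). Its log2 ratios over day 0 were −0.27 ± 0.20 on day 2 and −0.26 ± 0.20 on day 139, and 0.01 ± 0.20 between the later days. Between the later days the chain moved less than its receptors: on day 139 over day 2 the log2 ratio of Fcgr3 was 0.86 below that of Fcer1g and that of Fcgr1 was 0.84 below it, while that of Fcgr4 was 0.79 above it, each ± 0.29. Fcgr4 and Fcgr3 thereby differed by 1.65 ± 0.29 in this comparison and by −0.74 ± 0.29 for day 2 over day 0. Fcgr3 and Fcgr2b, whose proteins bind the same antibodies with opposite signals, differed by −0.81 ± 0.29 for day 139 over day 0 and by −0.02 ± 0.29 for day 2 over day 0.

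Fcgrt had signals of 1208, 2068 and 1502 on days 0, 2 and 139 (chromosome 7, 52350556 to 52350615, minus strand, mm9). Day 2 was the highest. The log2 ratio was 0.78 ± 0.20 for day 2 over day 0 (ratio 1.71), 0.31 ± 0.20 for day 139 over day 0 and −0.46 ± 0.20 for day 139 over day 2.

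**Figure D3:**
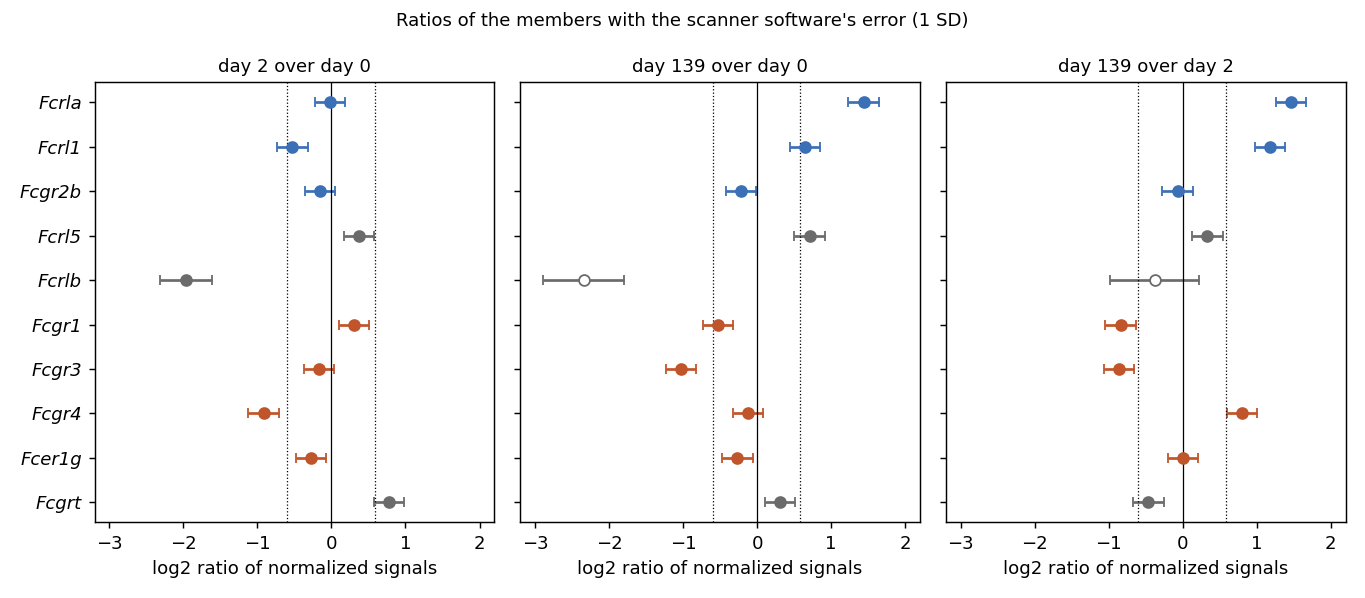
Log2 ratios of normalized signals (x axis) for the 10 genes (y axis) in each of the 3 comparisons, with bars for the scanner software's error (1 SD). Dotted lines mark ratios of 1.5 and 0.66, and open points involve a signal not well above background. Fcrla lies at 1.44 and 1.46 in the day 139 comparisons and at −0.02 for day 2 over day 0.

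Counted by the ratio that the study used as its criterion, at least 1.5 or at most 0.66, 3 of the 10 genes were past it for day 2 over day 0, where 20.5% of all 32108 probes were past it. These were Fcgrt, higher (10.1% of all probes), and Fcgr4 and Fcrlb, lower (10.4%). For day 139 over day 0, 5 of the 10 genes were past it, against 27.5% of all probes, with Fcrla, Fcrl1 and Fcrl5 higher (12.8%) and Fcgr3 and Fcrlb lower (14.7%). For day 139 over day 2, 5 of the 10 genes were past it, against 26.7% of all probes, with Fcrla, Fcrl1 and Fcgr4 higher (12.4%) and Fcgr1 and Fcgr3 lower (14.4%). The comparisons share arrays and are not separate evidence. Bright probes passed these limits less often. Of the 9 genes with signals of 300 and above on all 3 arrays, which leaves out Fcrlb, 2, 4 and 5 were past them in the 3 comparisons, against 8.82%, 14.4% and 14.6% of all probes with such signals on both arrays compared.

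With a Z-score of at least 2 or at most −2 required as well, Fcgr4 and Fcrlb were lower on day 2 than on day 0 (2.48% of all probes) and none of the 10 was higher (1.83%), where 4.31% of all probes were past both limits in either direction. On day 139 over day 0, Fcrla was higher (2.59%) and Fcrlb lower (2.07%), against 4.66% of all probes in either direction. On day 139 over day 2 Fcrla alone of the 10 was past both limits, against 4.13% of all probes, 2.54% higher and 1.59% lower. The median log2 ratio of the 10 genes was −0.16, −0.17 and −0.03 in the comparisons of day 2 over day 0, day 139 over day 0 and day 139 over day 2, beside 0.01, −0.02 and −0.04 over all probes.

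**Figure D4:**
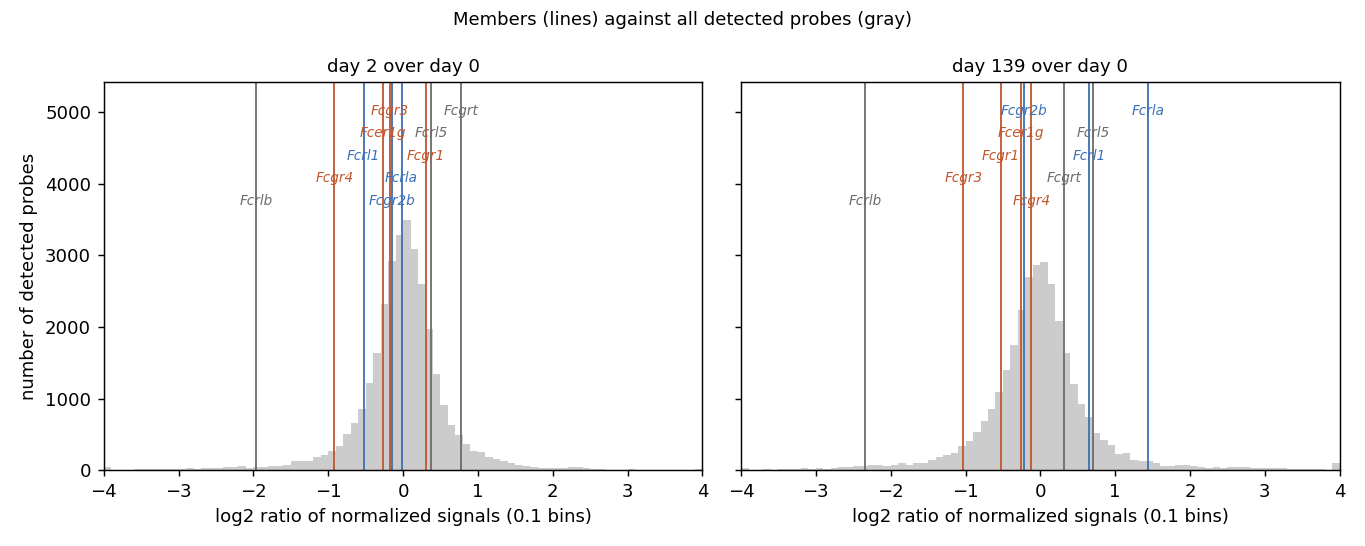
Number of probes well above background on at least 1 array (gray, y axis) by log2 ratio of normalized signals (x axis, bins of 0.1, with values beyond ±4 in the end bins), for day 2 over day 0 and day 139 over day 0. Lines mark the 10 genes, B-cell members in blue, myeloid members in orange and the others in gray. On day 139 over day 0 Fcrla (1.44) and Fcrlb (−2.34, measured) lie farthest out, and 27.5% of all probes are past the ratio limits.

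The median log2 ratio of Fcrla, Fcrl1 and Fcgr2b was −0.15 for day 2 over day 0, 0.65 for day 139 over day 0 and 1.18 for day 139 over day 2. That of Fcgr1, Fcgr3, Fcgr4 and Fcer1g was −0.22, −0.40 and −0.42. The B-cell members thus stood above the myeloid members by 0.07, 1.05 and 1.59. These medians are over 3 and 4 genes that differ among themselves, with log2 ratios of day 139 over day 0 from −0.22 to 1.44 in the first and from −1.03 to −0.12 in the second. The classes overlapped for day 139 over day 2, from −0.07 to 1.46 and from −0.86 to 0.80, and with Fcrl5 and Fcrlb counted as B-cell members the difference of 1.59 became 0.75.

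The sign of the smaller values depends on how the arrays were scaled. Quantile normalization gives all 3 arrays the same distribution of signals, whereas the 7 spike-in controls, RNAs added in known amounts, had a median signal on day 139 of 65.2% of that on day 0, against 103% on day 2. Scaled to them, the median of all probes shifted to 0.37 for day 139 over day 0 and 0.40 for day 139 over day 2. In the first of these comparisons Fcgr2b then lay at 0.20, Fcgr4 at 0.28 and Fcer1g at 0.18, above 0, but at −0.17, −0.08 and −0.19 relative to the shifted median of all probes. In the second Fcgr2b lay at 0.39, or −0.011 from that median. Fcgr3 (−0.60 and −0.41) and Fcgr1 (−0.13 and −0.38) stayed lower but within the ratio limits, and relative to the shifted median of all probes they lay at −0.96 and −0.82 and at −0.49 and −0.78. Fcrla lay at 1.85 and 1.89, which is 1.49 above the shifted median in both.

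Of 10 other genes for Fc receptors and their partners, 8 were well above background on at least 1 array, and Ms4a2 and Fcrl6 were not. For day 2 over day 0, 3 were past 1.5-fold higher and 0 lower, where 10.1% and 10.4% of all probes were. For day 139 over day 0, 5 were higher and 1 lower (12.8% and 14.7% of all probes), and for day 139 over day 2, 3 were higher and 2 lower (12.4% and 14.4%). Their median log2 ratios were 0.04, 0.85 and 0.41. Fcer2a, the low-affinity IgE receptor of B cells, had signals of 339, 631 and 1080 on days 0, 2 and 139, and Faim3, the IgM receptor now named Fcmr, had 6969, 7273 and 15029. Both were highest on day 139, 3.18-fold and 2.16-fold over day 0. Fcamr, a receptor for IgM and IgA, was well above background on day 139 alone, at 33.9, at least 2.62-fold higher than on day 0.

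Fcer1a, the binding chain of the IgE receptor of mast cells and basophils, had signals of 18.3, 41.4 and 54.5, lowest on day 0. Fcrls, an Fc receptor-like gene with a scavenger receptor domain, had 36.8, 124 and 55.6, highest on day 2. Pigr, which carries IgA and IgM across epithelia, had 64935, 61976 and 27832, a ratio of 0.43 for day 139 over day 0. B2m, the partner of Fcgrt, had 39893, 40208 and 52185, a ratio of 1.31 for day 139 over day 0, and so did not share the day 2 high point of Fcgrt.

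Of 16 genes that carry the activating signal inside the cell, all detected, 0 were past 1.5-fold higher on day 2 (10.1% of all probes) and 2 were lower (10.4%), among them the kinase Lyn (458 and 268 on days 0 and 2). Higher for day 139 over day 0 were 4 (12.8% of all probes), the kinases Syk (1.53-fold) and Tec (2.03-fold) and the adaptors Blnk (2.07-fold) and Lat2 (2.19-fold). Again 4 were higher for day 139 over day 2 (12.4% of all probes), namely Lyn (1.54-fold), Tec (2.11-fold), Blnk (1.78-fold) and Lat2 (1.87-fold). The adaptor Gab2 had signals of 20.8, 22.5 and 13.4, the last not well above background, so its day 139 signal was lower by at least 1.14-fold than on day 0 and 1.24-fold than on day 2, which does not show it past 1.5-fold, and none of the others was lower. The medians of the 16 were −0.04, 0.10 and 0.37. Of 5 genes for the inhibitory signal, 0 were past 1.5-fold in either direction for day 2 over day 0, where 20.5% of all probes were. On day 139 only the adaptor Dok3 was (1.56-fold over day 0, 1.64-fold over day 2), where 27.5% and 26.7% of all probes were. With 5 genes such counts cannot be told apart from these shares. Inpp5d, the phosphatase recruited by Fcgr2b, had signals of 5014, 4944 and 5234, and so lay close to even like Fcgr2b itself. The medians of these 5 were −0.02, 0.16 and 0.09.

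Markers of the cell types that carry these receptors were read on the same arrays. The summed signal of 8 B cell markers, all detected, was 48336, 47678 and 89478 on days 0, 2 and 139. Their median log2 ratio over day 0 was 0.02 for day 2 and 0.93 for day 139. For day 139 over day 0, 6 of the 8 were past 1.5-fold higher (12.8% of all probes) and none lower (14.7%). All 6 plasma cell markers were detected, with sums of 54482, 34902 and 92991 and medians of −0.18 and 1.25. The day 139 signals of Fcrla and Fcrl1 were thus high where those of Cd79a (4835, 7099 and 12454) and Ms4a1 (9330, 7180 and 16320) were. The part of cell numbers in these differences was not tested.

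Of the myeloid markers, all 10 for macrophages were detected, with sums of 105551, 125730 and 115764. Their median log2 ratios over day 0 were 0.40 on day 2 and 0.10 on day 139, on the opposite side from the medians of the myeloid members (−0.22 and −0.40). Single macrophage markers ran from −0.51 to 0.65 for day 139 over day 0. In that comparison 1 was past 1.5-fold higher (12.8% of all probes), 0 were lower (14.7%) and 9 were neither. The 8 neutrophil markers had sums of 252404, 111773 and 118901 and medians of −1.04 and −0.79. They were not of 1 kind. On day 139 over day 0, 4 were past 1.5-fold lower (14.7% of all probes), among them S100a8 (53944, 11604 and 15540). Camp (5295, 7500 and 8696) was the 1 that was higher (12.8%), and 3 were neither. The 4 detected of 5 monocyte markers had sums of 12736, 6799 and 5052 and medians of −0.87 and −1.70. They were mixed as well. For day 139 over day 0, 3 were past 1.5-fold lower (14.7% of all probes), among them Cd14 (3527, 1295 and 577). The other 1, Itgam, was neither (3040, 3035 and 3109). Fcgr3 was lowest on day 139, where the summed monocyte signal was lowest but Itgam was not. Fcgr4 shared the low day 2 sum of the neutrophil markers but not their low day 139 sum. Those sums rest largely on S100a9 (147009, 51357 and 58589) and S100a8. For day 2 over day 0, 4 of the 8 neutrophil markers were past 1.5-fold lower (10.4% of all probes). None was higher (10.1%), and 4 were neither. The part of these cells in the ratios of Fcgr3, Fcgr1 and Fcgr4 was not tested.

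The other marker lists gave medians over day 0, for day 2 and day 139, of 0.32 and 0.91 for T cells (5 of 6 markers detected, sums 10622, 14342 and 19491), −0.65 and −0.23 for NK cells (5 of 5, sums 1366, 1112 and 1260) and −0.02 and 0.07 for dendritic cells (5 of 5, sums 81764, 77800 and 71618). Mast cells and basophils had 0.87 and 0.69 (4 of 5 detected, sums 869, 989 and 862), with Ms4a2 not well above background. Endothelial cells had −0.59 and −0.14 (6 of 6, sums 12742, 14724 and 12339), and erythroid cells 0.07 and −0.53 (5 of 5, sums 388532, 424166 and 378695). A sum can go against its median: that of the endothelial markers was higher on day 2 than on day 0. Markers of the labelled tissue, B cells, macrophages and erythroid cells, were well above background on all 3 arrays.

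**Figure D5:**
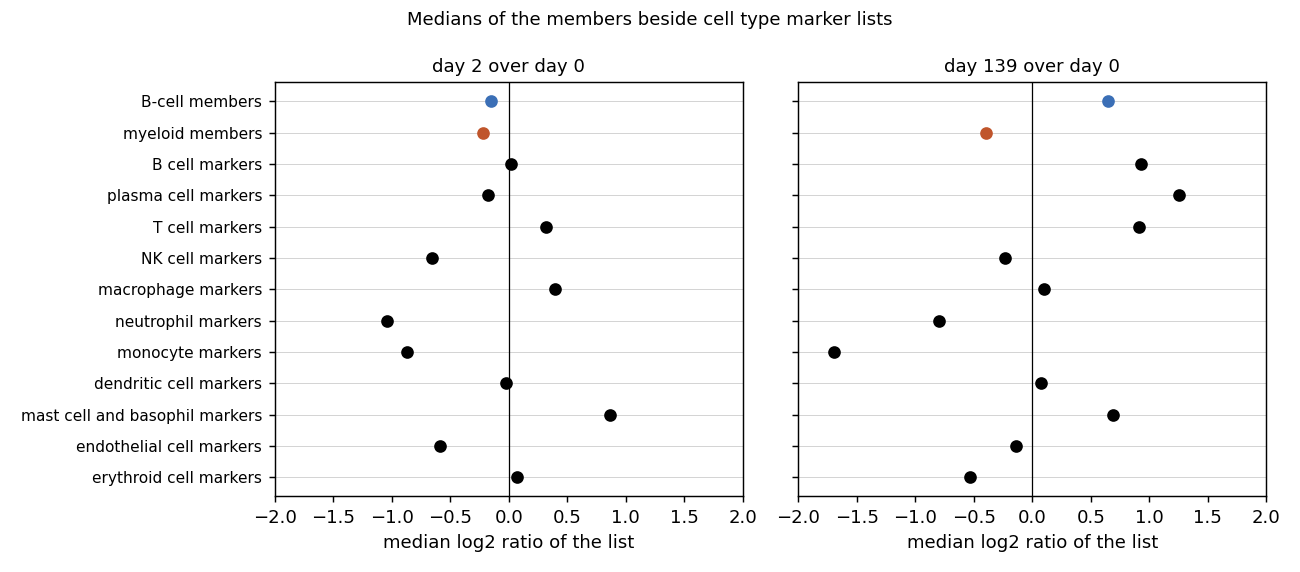
Median log2 ratio (x axis) of the B-cell members (blue), the myeloid members (orange) and 11 lists of cell type markers (black), for day 2 over day 0 and day 139 over day 0. On day 139 the B-cell members (0.65) lie on the side of the B cell (0.93) and plasma cell (1.25) markers, as do the T cell markers (0.91). The myeloid members (−0.40) lie on the side of the neutrophil (−0.79) and monocyte (−1.70) markers, and the macrophage markers (0.10) do not.

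Among 26887 probes well above background on all 3 arrays, 67 followed the pattern of Fcrla with a root mean square difference of at most 0.1 in centred log2 signal. Of the closest 5, over 3 arrays, 3 had a gene name. St6gal1, which adds sialic acid to glycoproteins and makes the ligand of Cd22, had signals of 811, 786 and 2155 and a difference of 0.0131. Otud1, a deubiquitinase, had 29.6, 29.6 and 82.4 (0.0150), and Cspg5, a proteoglycan, had 18.2, 18.5 and 50.9 (0.0229). The Cspg5 signals on days 0 and 2 lie near the lowest well above background (12.9 and 14.0). All 3 differences are below the scanner error of 0.20 for the Fcrla log2 ratios, so the order of these genes is not resolved. With 3 points to a pattern many probes match by their number alone.

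Several of the genes are neighbors. On mm9 the probes on chromosome 1 lie in the order Fcrlb, Fcrla, Fcgr2b, Fcgr4, Fcgr3 and Fcer1g, at 10.68, 53.6, 122, 147 and 322 kb from the first, and Fcrl1, Fcrl5 and Fcgr1 lie on chromosome 3. Fcrla (1.44 for day 139 over day 0) lay between Fcrlb, at least 3.34-fold lower on day 139, and Fcgr2b (−0.22), while the adjacent Fcgr2b and Fcgr4 differed by 0.10 ± 0.29.

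The 250 bases before the start of 4 genes are printed from RefSeq (GRCm38.p6), 5′ to 3′ on the strand of the gene, for the B-cell pair that was highest on day 139 and for an activating pair with opposite day 2 signals. Capitals mark a PU box, GAGGAA or its complement TTCCTC, the core that PU.1 of myeloid and B cells binds, and in Fcgr1 also TTCNNNGAA, the form of site that STAT factors bind. All 10 genes matched the table, Fcgr3 with 2 starts, which gives 11 windows.
Fcrla, chr1:170927584-170927833, minus strand: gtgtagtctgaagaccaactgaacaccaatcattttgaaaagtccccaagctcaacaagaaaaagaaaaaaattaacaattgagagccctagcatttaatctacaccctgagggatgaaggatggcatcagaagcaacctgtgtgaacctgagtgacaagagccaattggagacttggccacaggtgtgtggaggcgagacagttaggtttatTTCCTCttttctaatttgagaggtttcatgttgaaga
Fcrl1, chr3:87376137-87376386, plus strand: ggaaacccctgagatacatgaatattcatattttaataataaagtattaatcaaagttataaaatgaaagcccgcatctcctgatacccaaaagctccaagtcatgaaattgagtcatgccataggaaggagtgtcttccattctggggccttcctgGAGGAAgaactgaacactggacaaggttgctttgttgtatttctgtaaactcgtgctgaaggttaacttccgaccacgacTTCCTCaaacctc
Fcgr1, chr3:96293970-96294219, minus strand: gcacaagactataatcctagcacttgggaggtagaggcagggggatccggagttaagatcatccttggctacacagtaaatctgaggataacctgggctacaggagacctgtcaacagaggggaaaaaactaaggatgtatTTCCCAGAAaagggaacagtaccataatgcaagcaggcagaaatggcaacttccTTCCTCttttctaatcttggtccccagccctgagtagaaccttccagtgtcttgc
Fcgr4, chr1:171018676-171018925, plus strand: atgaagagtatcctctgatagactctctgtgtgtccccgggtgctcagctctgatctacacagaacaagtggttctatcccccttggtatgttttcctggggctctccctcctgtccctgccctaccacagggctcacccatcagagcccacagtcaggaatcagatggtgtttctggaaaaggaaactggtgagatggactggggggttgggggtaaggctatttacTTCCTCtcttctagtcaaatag

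On both strands, the PU box was in the windows of 6 of the 10 genes, Fcrla, Fcrlb, Fcrl1, Fcgr1, Fcgr3 and Fcgr4, and in 23.3% of all 32851 windows of this length. Its first base, read on the gene's strand, lay 37 bases before the start in Fcrla, 93 and 13 in Fcrl1, 55 in Fcgr1 and 22 in Fcgr4. Of the genes highest on day 139, Fcrla and Fcrl1 had the box and Fcrl5 did not. Of those lowest there, Fcgr1 and Fcgr3 had it and Fcgr2b did not. Fcrlb, with the box, was not well above background on day 139. The TTCNNNGAA form was in the window of Fcgr1, 109 bases before the start and not overlapping the PU box, and in 7.02% of all windows. The octamer ATTTGCAT, known from antibody gene promoters of B cells, was in none of the 11 windows, and in 1.60% of all. These letters are descriptions of sequence, and the arrays did not measure binding.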

How the data were processed

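Spleen RNA of the 3 conditions was labeled with Cy3 and hybridized to SurePrint G3 Mouse 8x60K arrays, 1 per condition and all on 1 slide, so conditions do not differ by slide. The authors deposited the scanner's spot intensity values, written by Feature Extraction (version 10.7.1.1 in the file headers, 9.5.1.1 in the submitters' processing notes), with background subtracted but no normalization between arrays, and a table of normalized intensity values per probe, used here as an alternative. For the 10 genes the latter differed from the values here by at most 1.11%.

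Without control spots and spots marked as outliers, replicate spots were reduced to their mean and 55679 probes were quantile normalized over the 3 arrays as in the study's methods, with a floor of 1, then taken to log2 (Python 3.11.15, numpy 2.4.6, pandas 2.3.3). Probes well above background numbered 30291, 29982 and 28088 on days 0, 2 and 139, and no gene spot was saturated. The study's text gives no formula for its Z-score, and the one used here divides by the SD of the 1000 probes nearest in mean signal. The brightest detected probe stood for a gene. Where a probe was not well above background on 1 array, the fold is a bound, taken against its own signal there or the lowest signal well above background, whichever was higher.

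The members, the lists of markers and pathway genes and the motifs were written from general knowledge, with earlier results of these data known. Named genes are the 10 members, the pathway genes past 1.5-fold, of which 1 is not reported here, and the 5 entries closest to Fcrla, of which the 3 with a gene name are printed. Counts over all probes use measured ratios. Beyond this rule, Cd79a, Ms4a1, S100a8, S100a9, Camp, Cd14, Itgam, Inpp5d, B2m, Fcamr and Gab2 were named as examples after their values were seen. Gene names and positions (mm9) are those of the array annotation. The alternatives were normexp correction with an offset of 50 (limma 3.58.1, R 4.3.3), a common 75th percentile, spike-in scaling, the deposited values, a higher floor, outlier-flagged spots kept, stricter or no detection, the Z-score limit, the median over probes, and other members in the B-cell class. The calculation was tested on simulated data. The labels and the study's methods name different RNA kits.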

Additional observations from a re-analysis of the deposited data

How the results depend on the processing

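For day 2 over day 0, the 3 genes past 1.5-fold kept their call under each other scaling, correction and filter that measured them, and Fcgrt alone lost it to the Z-score (1.997). For day 139 over day 0, Fcrl1 lost its call with normexp and Fcgr3 with spike-in scaling, and for day 139 over day 2, Fcgr1 and Fcgr3 lost theirs with spike-in scaling. That scaling added Fcgrt (1.67) to the first and Fcrl5 (1.64) to the second, giving 4 higher and 1 lower, and 4 higher and 0 lower. Requiring the Z-score as well left 2 of 5 genes for day 139 over day 0 and 1 of 5 for day 139 over day 2. The B-cell median of 0.65 for day 139 over day 0 was 1.05 with spike-in scaling and 1.04 without Fcgr2b. That of 1.18 for day 139 over day 2 was 0.96 with normexp, 1.63 with spike-in scaling and 0.34 with Fcrl5 and Fcrlb added. The myeloid medians of −0.40 and −0.42 became 0.028 and 0.025 with spike-in scaling, which are −0.34 and −0.38 relative to the median of all probes, against −0.37 and −0.38 before. The excess of the B-cell over the myeloid median ranged from 0.76 to 1.05 for day 139 over day 0 and from 1.26 to 1.61 for day 139 over day 2 over the scalings, corrections and filters. Without Fcgr2b it was 1.44 and 1.73, and with Fcrl5 and Fcrlb added 1.05 and 0.75. Of the medians and counts under the alternatives, 81 stayed within the error (counts within 1.5 times) and 9 did not. Of the values of single genes 245 stayed within it and 22 did not. These tallies overstate stability, because each gene had 1 detected probe. The detection filters and the median over probes therefore could not change the value of a gene they kept, and the higher floor changed only Fcrlb. In both day 139 comparisons spike-in scaling moved the value of every gene except Fcrlb. Detection on all 3 arrays leaves out Fcrlb, whose signals were near background. No paired analysis was possible because each condition has 1 array. Probes near background are the least precise.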
